A study of Mus musculus with 6 samples.

Results

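The genes described here are 10 members of gene families known for negative feedback regulators and transcriptional targets of ERK signalling. They are Spry1, Spry2, Spry3 and Spry4 (Sprouty genes), Dusp4, Dusp5 and Dusp6 (dual specificity phosphatase genes), and Etv1, Etv4 and Etv5 (ETS factor genes). They were chosen by symbol, and all 10 were found among the 24062 genes of the deposited count files. RNA was taken from optic nerves of adult mice over 2 months old, 1 month after tamoxifen. The mutant group (3 libraries, titled NF1 f/f) carried PlpCreERT2, a tamoxifen-inducible Cre recombinase driven by the proteolipid protein promoter, and floxed Nf1 on both chromosomes. The control group (3 libraries, titled Ctrl) had no Cre: control library 1 was Nf1flox/flox, and control libraries 2 and 3 were Nf1flox/+. Every animal of the study therefore carried at least 1 floxed allele, and the labels describe tamoxifen treatment for all of them. The whole nerve was sequenced, not the recombined oligodendrocytes alone, so that fewer cells of a type and less RNA per cell cannot be told apart. Whether each library came from its own animal is not stated in the labels, so p-values measure the spread among libraries, some of which may be technical.

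Growth factor receptors signal through Ras, Raf and MEK to the ERK kinases. Neurofibromin, the product of Nf1, is a GTPase-activating protein that returns Ras to its inactive state. Active ERK induces genes that act back on the route: Sprouty proteins dampen the step from receptor to Ras and Raf, and Dusp phosphatases remove phosphate from ERK itself. The PEA3 group of ETS factors, Etv1, Etv4 and Etv5, carries the response into transcription, in many tissues downstream of fibroblast growth factors. In oligodendrocytes, ERK activity is known to promote growth of the myelin sheath. Transcripts of these feedback genes are therefore often read as a proxy of ERK output.

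Total counts ranged from 13555756 to 23662698 per library. Levels are given as CPM (counts scaled to a common library size by TMM, a trimmed mean normalization) or, to compare genes, as CPM per kilobase of exon. Mutant library 2 stood apart from the other mutants: it correlated with the controls across genes (log2 CPM) at a Pearson's r from 0.948 to 0.957, and mutant libraries 1 and 3 did so at 0.881 to 0.894. Nf1 itself had 337 to 400.0 CPM in controls and 304, 226 and 433 CPM in mutant libraries 1, 2 and 3. These counts cover all exons of Nf1, cannot single out the floxed part and so do not check the labels. The inactive X transcript Xist was nearly silent in control libraries 1 and 3, at 58 and 34 counts, and had 30602 to 72727 counts in the other 4, so sex markers differed within the controls and were of 1 kind in the mutants.

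Among the 10 feedback genes, Spry3 rose in the mutant nerves, and the other 9 did not pass the test. Of the 10 fold changes 8 were positive, with Spry1 and Etv1 the exceptions, and the median log2 fold change was 0.73, where the median over all 16315 genes tested was 0. A call here is an edgeR quasi-likelihood test with Benjamini-Hochberg adjusted p under 0.05 over all genes tested. Over those genes 3.29% were called, 2.95% higher and 0.337% lower. The 3 mutant libraries lay above all 3 controls in 4 of the 10, Spry2, Spry3, Etv4 and Etv5, where 12.5% of all genes tested did so, and none lay below all controls, where 11.5% did. In either direction the ranges were apart for 4 of the 10 and for 24% of all genes. An unadjusted p under 0.05 was found for 4 of the 10 (Spry2, Spry3, Dusp4 and Etv5) and for 19.2% of all genes. All 10 passed the filter on low counts.

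**Figure D1:**
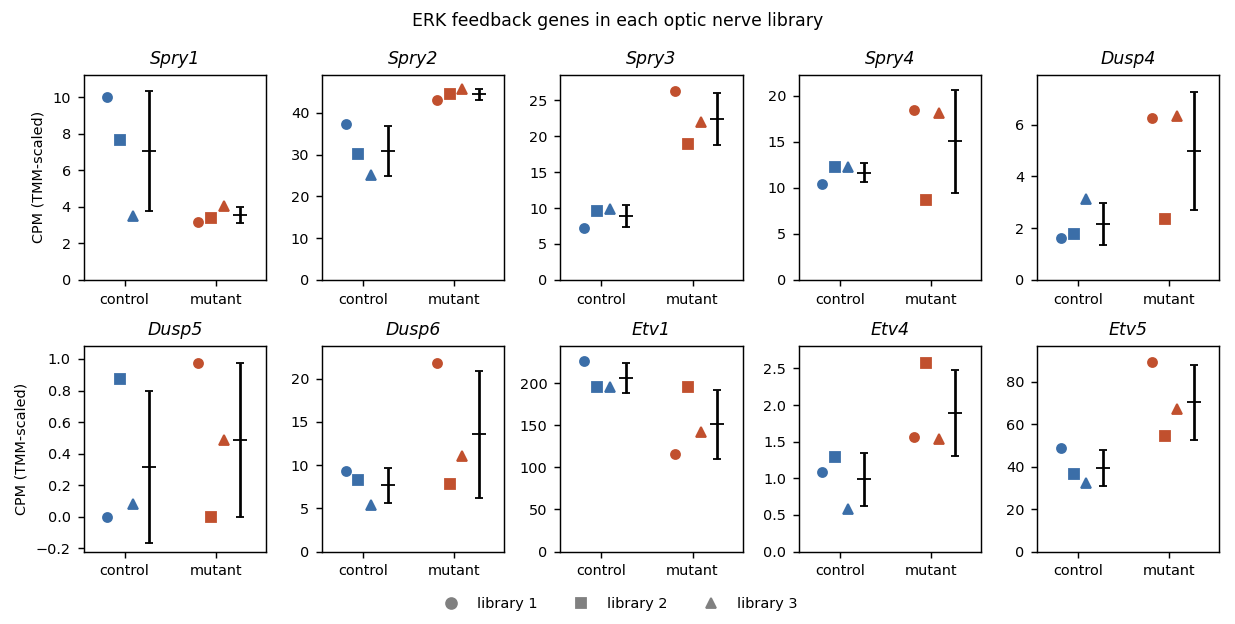
CPM (TMM-scaled, vertical axes from 0 except for Dusp5, whose SD reaches below it) of the 10 genes in 3 control and 3 mutant optic nerve libraries; symbols mark the libraries, and the black bars are mean ± SD. Spry2, Spry3, Etv4 and Etv5 lie above all controls in each mutant library, whereas Spry4, Dusp4, Dusp6 and Etv1 of mutant library 2 lie at or near the control levels.

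The abundance of these transcripts in control nerve spanned more than 2 orders of magnitude per length of exon. Etv1 led with 48.8 ± 4.22 CPM per kilobase (SD, n = 3), at the 93.5th percentile of all genes tested. Spry2 followed with 14.8 ± 2.91 and Etv5 with 10.3 ± 2.25 CPM per kilobase, and their library ranges overlapped. Spry1, Dusp6, Spry4 and Spry3 formed a group from 2.83 down to 2.05 CPM per kilobase, in which no neighbours in the order were separated by their ranges. Dusp4 had 0.897 ± 0.335, Etv4 0.422 ± 0.156 and Dusp5 0.275 ± 0.416 CPM per kilobase, the last at the 2.7th percentile. In the mutants the first 3 kept their places by mean level, Spry3 stood in place 4 instead of 7, and Spry1 in place 8 instead of 4.

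Spry3 is the X-linked member of the Sprouty family. In the deposited files (mm10) it lies on the unlocalized X contig chrX_GL456233_random, from 101352 to 106392 on the minus strand, with 2 exons of 4346 bases in all. It had 7.18, 9.62 and 9.92 CPM in control libraries 1, 2 and 3 and 26.3, 19.0 and 22 CPM in mutant libraries 1, 2 and 3. The groups were well apart. Group means were 8.91 ± 1.5 and 22.4 ± 3.67 CPM (SD, n = 3 each), and the log2 fold change was 1.33 (SE 0.27; by edgeR, adjusted p 0.0374). Control library 2, at 9.62 CPM, was the only control with high Xist. With the libraries of high Xist alone, 1 control and 3 mutants, the log2 fold change was 1.22, where the lone control is assumed to vary like the mutants and edgeR called 0 of 17075 genes (894 at an unadjusted p under 0.05). The part of sex in the Spry3 difference was not tested. The call held without mutant library 2 (log2 fold change 1.44, edgeR adjusted p 0.00274) and was lost without any 1 of the other 5 libraries, where log2 fold changes were 1.20 to 1.41 and edgeR adjusted p 0.0943 to 0.184. Without mutant library 2 edgeR called 4551 of 16857 genes tested, and the other 5 fits called 51 to 199 genes.

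Spry2, the most abundant Sprouty transcript of the nerve and a classical ERK-induced inhibitor, lies on chromosome 14 (105891947 to 105896819, minus strand, 2 exons). Its levels were 37.2, 30.1 and 25.2 CPM in the controls and 43.2, 44.4 and 45.8 CPM in the mutants. The mutant libraries were close to each other and above each control. The log2 fold change of 0.53 (SE 0.23; by edgeR, adjusted p 0.256) did not pass. Without mutant library 2 it was also 0.53 (edgeR adjusted p 0.128).

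Spry1, which restrains receptor signalling in many organs, lies on chromosome 3 (37639950 to 37644599, plus strand, 3 exons). It had 10, 7.63 and 3.48 CPM in controls and 3.18, 3.40 and 4.05 CPM in mutants. Control library 3 lay within the range of the mutants, so the groups overlapped, and the spread was wider among controls (SD 3.30) than among mutants (SD 0.449). Its log2 fold change was -0.99 (SE 0.45; by edgeR, adjusted p 0.274). In GENCODE M21, on the same assembly, exons of the predicted gene Gm42922 on the opposite strand overlap up to 156 bases of a Spry1 exon, and counting ignored strand.

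Spry4, another ERK-induced inhibitor (chromosome 18, 38586265 to 38601268, minus strand), had 10.4, 12.3 and 12.2 CPM in controls and 18.5, 8.62 and 18.1 CPM in mutants. Mutant libraries 1 and 3 were above the controls and mutant library 2 below them. The log2 fold change was 0.37 (SE 0.34; by edgeR, adjusted p 0.591), and 0.66 (edgeR adjusted p 0.0837) without mutant library 2 and 0.20 (edgeR adjusted p 0.893) without mutant library 1. Summed over the 4 Sprouty genes, the level was 22.2 ± 3.69 CPM per kilobase in controls and 31.2 ± 1.97 in mutants. Spry2 made up 66.4% ± 2.46 of that sum in controls and 68.6% ± 4.66 in mutants. The share of Spry3 was 6.41%, 9.89% and 12.4% among controls and 18.9%, 15.1% and 15.5% among mutants, and that of Spry1 was 12.3% ± 4.18 and 4.57% ± 0.519 (n = 3 each). These shares describe the mix and were not tested.

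The Dusp genes encode phosphatases that inactivate ERK, Dusp6 in the cytoplasm and Dusp4 and Dusp5 in the nucleus. Dusp6 (chromosome 10, 99263231 to 99267489, plus strand, 3 exons) had 9.31, 8.25 and 5.39 CPM in controls and 21.8, 7.86 and 11 CPM in mutants. Mutant library 1 was the highest by far, mutant library 3 was just above the controls, and mutant library 2 was within them. The log2 fold change was 0.83 (SE 0.42; by edgeR, adjusted p 0.327).

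Dusp4 (chromosome 8, 34807610 to 34819894, plus strand, 4 exons), which also acts on other MAP kinases, also had its lowest mutant value in library 2. It had 1.63, 1.78 and 3.11 CPM in controls and 6.26, 2.34 and 6.35 CPM in mutants, with mutant library 2 inside the control range. The log2 fold change was 1.19 (SE 0.52; by edgeR, adjusted p 0.258). Without mutant library 2, Dusp4 was at 1.54 (edgeR adjusted p 0.0244) and Dusp6 at 1.11 (edgeR adjusted p 0.0453), and both passed. That fit called 27% of all genes tested. Without mutant library 1, Dusp4 was at 1.00 (edgeR adjusted p 0.588) and Dusp6 at 0.31 (edgeR adjusted p 0.82).

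Dusp5 (chromosome 19, 53529318 to 53541322, plus strand) was hardly detected. Control libraries had 0, 21 and 2 counts and mutant libraries 18, 0 and 7, where a count of 0 allows up to 3 counts, or 0.149 CPM in control library 1 and 0.227 CPM in mutant library 2. Libraries with and without counts were found in both groups. The ratio of mutant to control rates was 1.61, with a 95% exact interval of 0.879 to 2.97 that covers counting error only. A difference between groups was not detectable at this depth. An antisense model of GENCODE M21 overlaps up to 338 bases of its exons.

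The fold changes of the ETS factor genes differed in sign. Etv5 (chromosome 16, 22381313 to 22439570, minus strand) had 48.9, 36.8 and 32.3 CPM in controls and 89.2, 54.6 and 67.1 CPM in mutants. Each mutant library was above each control. The group means were 39.3 ± 8.59 and 70.3 ± 17.5 CPM (SD, n = 3 each), with a log2 fold change of 0.84 (SE 0.27; by edgeR, adjusted p 0.136). Without mutant library 2, in a fit that called 27% of all genes tested, it passed at 1.00 (SE 0.24, edgeR adjusted p 0.0116). Without mutant library 1 it was at 0.63 (edgeR adjusted p 0.433).

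Etv1 (chromosome 12, 38780258 to 38868215, plus strand), the most abundant of the 10, was below all controls in 2 of 3 mutant libraries. It had 227, 196 and 196 CPM in controls and 116, 196 and 142 CPM in mutants. Mutant library 2 was at the level of control libraries 2 and 3, so the groups overlapped. The log2 fold change was -0.45 (SE 0.25; by edgeR, adjusted p 0.375), and without mutant library 2 it passed at -0.67 (SE 0.20; by edgeR, adjusted p 0.0298). The fit without mutant library 2 called 27% of all genes tested. Without mutant library 1 Etv1 was at -0.29 (edgeR adjusted p 0.75).

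Etv4 (chromosome 11, 101769742 to 101785310, minus strand) was rare, with 1.09, 1.29 and 0.581 CPM in controls and 1.56, 2.57 and 1.54 CPM in mutants. The mutants were above the controls, by 1.91-fold in the fit, on 14 to 34 counts per library. The log2 fold change of 0.93 (SE 0.58; by edgeR, adjusted p 0.422) did not pass. It was the only 1 of the 10 with its highest value in mutant library 2.

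The summed level of the 3 Etv genes was 59.5 ± 6.46 CPM per kilobase in controls and 55.0 ± 5.87 in mutants, a smaller difference than the spread. Its composition differed more: Etv5 made up 19.1%, 17% and 15.3% of it in controls and 45.4%, 23.2% and 33.9% in mutants, and Etv1 made up 80.2%, 82% and 84.2% in controls and 53.3%, 75.1% and 64.8% in mutants. The ranges of these shares did not overlap between groups, and the shares were not tested. Etv4 made up 0.707% ± 0.262 of the sum in controls and 1.45% ± 0.286 in mutants. The shares of Etv1 and Etv5 are therefore nearly complements and not separate results. The 3 genes are close paralogs, and their longest identical stretches of coding sequence (GENCODE M21 transcripts) are shown because counts of such genes could be mixed by reads that match both. Both stretches are 23 bases long and lie at the end of the part that encodes the DNA-binding ETS domain.
Etv1 and Etv5: tacaaatttgtgtgtgacccgga
Etv4 and Etv5: ggcatcatgcagaaggtggctgg
The longest stretch shared by Etv1 and Etv4 was 18 bases. Between the transcripts of Spry1, Spry2 and Spry4 it was at most 17 bases, and between those of the 3 Dusp genes at most 13 bases. Spry3 was not among the transcripts compared. Reads longer than these stretches differ between the genes, but the read length is not given in the sources used here.

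The start regions of Spry2, Etv5 and Etv1 are shown because these 3 were the most abundant of the 10 and their fold changes differed in sign. Each is the 250 bases before a RefSeq transcript start (GRCm38.p6, the mm10 assembly), printed 5′ to 3′ on the strand of the gene. Capitals mark matches to the motifs searched on both strands: CCGGAA and GGAAGT (ETS core, which can overlap in 4 bases), TGACGTCA (cyclic AMP response element), TGAGTCA (AP-1), CACGTG (E-box) and GGGCGG (Sp1).
Spry2, chr14:105896820-105897069, minus strand: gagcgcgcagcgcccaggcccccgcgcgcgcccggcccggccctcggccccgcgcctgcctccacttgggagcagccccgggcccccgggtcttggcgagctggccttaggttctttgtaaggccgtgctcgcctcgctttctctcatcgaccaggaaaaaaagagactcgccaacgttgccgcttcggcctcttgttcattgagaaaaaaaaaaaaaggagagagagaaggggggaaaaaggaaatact
Etv5, chr16:22439571-22439820, minus strand: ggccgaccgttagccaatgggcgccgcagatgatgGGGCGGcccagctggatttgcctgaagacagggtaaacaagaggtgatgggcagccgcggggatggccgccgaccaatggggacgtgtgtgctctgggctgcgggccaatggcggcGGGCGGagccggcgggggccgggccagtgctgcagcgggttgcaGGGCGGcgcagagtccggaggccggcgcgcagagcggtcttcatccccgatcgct
Etv5, second start, chr16:22438369-22438618, minus strand: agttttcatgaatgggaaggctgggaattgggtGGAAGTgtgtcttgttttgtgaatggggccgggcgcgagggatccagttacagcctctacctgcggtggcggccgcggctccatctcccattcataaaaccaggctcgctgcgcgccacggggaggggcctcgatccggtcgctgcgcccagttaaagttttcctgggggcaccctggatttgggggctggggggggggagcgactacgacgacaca
Etv1, chr12:38779832-38780081, plus strand: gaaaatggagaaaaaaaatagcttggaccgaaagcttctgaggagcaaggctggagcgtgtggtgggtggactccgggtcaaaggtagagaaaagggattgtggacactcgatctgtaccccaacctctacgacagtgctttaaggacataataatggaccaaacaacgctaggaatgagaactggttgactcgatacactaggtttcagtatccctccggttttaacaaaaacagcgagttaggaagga
The Spry2 and Etv1 windows held none of these letters. The upstream Etv5 window held GGGCGG 3 times and no ETS letters, and the second held GGAAGT once, at position -217 from the start. Of all 32851 such windows in the RefSeq table, 27.1% held either ETS core and 32.7% held GGGCGG. Entries were found for 6 of the 10 genes, in 8 windows, and the other windows with a match were those of Dusp5 (GGAAGT and GGGCGG) and Spry1 (GGGCGG). A match describes the letters and is no evidence of binding.

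Mutant library 2 parted the feedback genes into those that were high in all 3 mutants and those that were not. Relative to the control mean of log2 CPM, Spry3 was 1.52, 1.06 and 1.27 higher in mutant libraries 1, 2 and 3. Spry2 was 0.50, 0.54 and 0.58 higher, Etv5 1.19, 0.49 and 0.78, and the rare Etv4 0.51, 1.08 and 0.49. In contrast, Dusp4 stood at 1.38, 0.13 and 1.4, Dusp6 at 1.48, 0.07 and 0.53, and Spry4 at 0.65, -0.41 and 0.62. The median over the 10 genes was 0.82, 0.10 and 0.56 in these mutant libraries, while the controls lay between -0.26 and 0.13. Without mutant library 2, 5 of the 10 passed by edgeR, Spry3, Dusp4, Dusp6 and Etv5 higher and Etv1 lower, where 27% of all genes passed, 13.2% higher and 13.8% lower.

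Markers of cell types differed between the same libraries. The summed level of 10 neuron markers was 699.5 to 1320.3 CPM in controls and 7292, 2179 and 5583 CPM in mutant libraries 1, 2 and 3, and 6 of the 10 rose. For 10 markers of striatal projection neurons, whose cell bodies lie in the forebrain, the sum was 115 to 173 CPM in controls and 2294.5, 1435 and 1560 CPM in mutants, and all 10 rose. None of these 20 genes was at 0 in a library, although the cortical neuron gene Slc17a7 had 0.25 to 0.64 CPM in controls and 140, 0.08 and 21.6 CPM in mutants. Markers of myelin and mature oligodendrocytes, the defining cells of the tissue, summed to 25877 to 26698 CPM in controls and 5425, 33816 and 4662 CPM in mutants, and 0 of 10 passed by edgeR, with 1 at an unadjusted p under 0.05. The 7 fibroblast markers summed to 1162 to 1293 CPM in controls and 252, 775 and 298 CPM in mutants, and the mean of the 8 precursor markers differed from control by -0.86, 0.04 and -0.91 log2 units in mutant libraries 1, 2 and 3, with 6 of the 8 fold changes negative. Of these lists, 0 of 7 and 0 of 8 passed by edgeR, with 7 and 2 at an unadjusted p under 0.05.

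Spry2, Spry3, Etv4 and Etv5 were grouped because each mutant library lay above all controls. Their higher levels in mutant library 2 follow from that choice. In mutant library 2 the mean of the myelin markers was 0.18 log2 units above control and that of the neuron markers 0.97 above. The mean of the striatal markers was 3.60 log2 units above control in that library, beside 4.20 and 3.58 in mutant libraries 1 and 3. With the mean of the neuron markers as a covariate, edgeR called 0 of the 10 genes, and none had an unadjusted p under 0.05. Over all 16315 genes tested, that fit called 34, with 898 at an unadjusted p under 0.05. There Spry3 was at 0.85 (SE 0.44; by edgeR, adjusted p 0.956), Spry2 at 0.65 and Etv5 at 0.28, while Dusp4, Dusp6 and Spry4 were at -0.54, -0.45 and -0.81 (SE 0.82, 0.68 and 0.52). With the mean of the myelin markers as covariate, a fit added after seeing the data, edgeR again called 0 of the 10 genes, with 1 at an unadjusted p under 0.05. Over all 16315 genes tested, that fit called 228, with 1769 at an unadjusted p under 0.05. There Spry3 was at 1.14, Spry2 at 0.53, Etv5 at 0.57, Etv4 at 1.36, Dusp4 at 0.21 and Dusp6 at 0.25. The neuron marker mean also separated the groups, at -0.16 to 0.32 log2 units in controls and 0.97 to 3.34 in mutants. That covariate therefore overlaps with group, and the SE of Spry3 was 0.44 with it and 0.27 without a covariate. The striatal markers separated the groups more widely and were not used as a covariate. The part of other cells or tissue in the differences of the feedback genes was not tested.

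**Figure D2:**
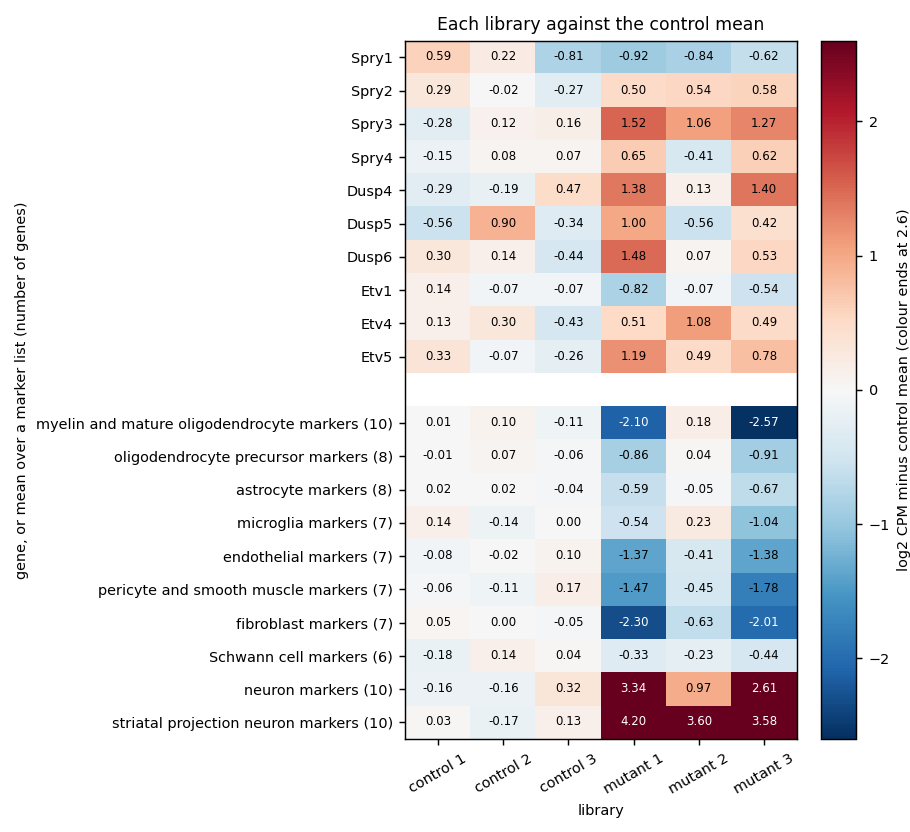
Difference of log2 CPM from the control mean, by library (columns), for the 10 genes (upper rows) and for the mean of each marker list (lower rows, number of genes in parentheses); red is higher and blue lower. Spry3, Spry4, Dusp4, Dusp6, Etv1 and Etv5 lie nearer the control mean in mutant library 2 than in mutant libraries 1 and 3. Among them, Spry3 (1.06 against 1.52 and 1.27) and Etv5 (0.49 against 1.19 and 0.78) are still higher there than in any control. For Dusp6, mutant library 3 (0.53) lies between the other mutants (1.48 and 0.07). Mutant library 2 is also nearer control in each marker list but the striatal one (3.60 against 4.20 and 3.58). Examples are the myelin (0.18 against -2.10 and -2.57), neuron (0.97 against 3.34 and 2.61) and fibroblast markers (-0.63 against -2.30 and -2.01).

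**Figure D3:**
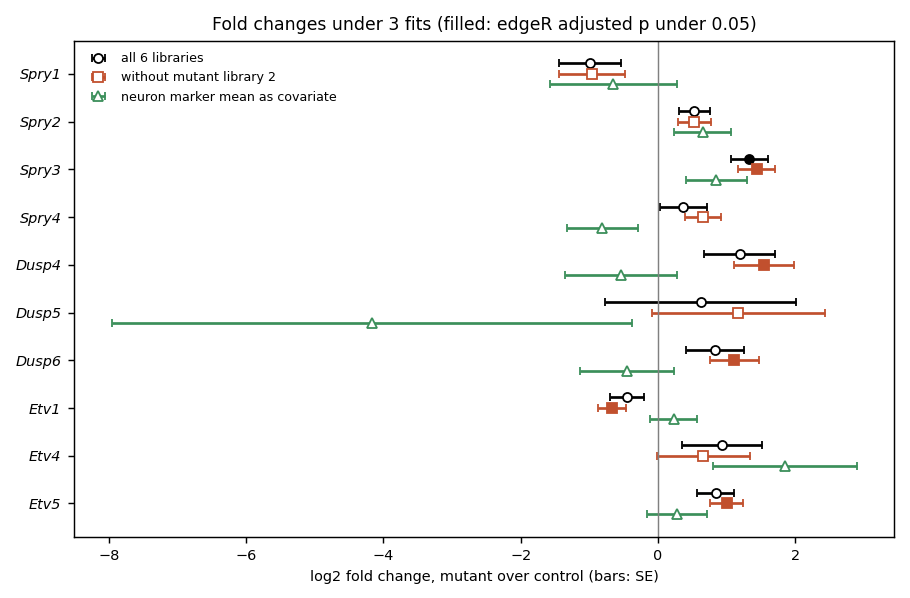
Log2 fold changes with SE (bars) of the 10 genes from 3 edgeR fits, with all libraries, without mutant library 2 and with the mean of 10 neuron markers as covariate; filled symbols have an adjusted p under 0.05. Spry3 passes with all libraries, 5 genes pass without mutant library 2, and none passes with the covariate. In all, these fits called 537 of 16315, 4551 of 16857 and 34 of 16315 genes tested.

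The pattern of Spry3 over the 6 libraries was most like those of Gm16701 (a gene model), Neurl1b (a ubiquitin ligase gene), Sptbn4 (a spectrin gene of axon initial segments and nodes), Arpp21 (a phosphoprotein gene of striatal and other forebrain neurons) and Cep83 (a centriole gene). Over the 6 libraries Pearson's r of log2 CPM lay between 0.9932 and 0.9986. The libraries share their grouping, and 339 genes had r over 0.95. Arpp21 was at a log2 fold change of 4.81 and Neurl1b at 3.58, against 1.33 for Spry3. Cep83, at 0.88 (SE 0.23), did not pass (edgeR adjusted p 0.0746).

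Other genes on and around the route from receptor to ERK were compared from 6 lists of 76 genes, of which 72 were tested. The lists are broad, and not all of their genes act on that route, as with Dusp8 and Fgf13 described below. In these lists 5 rose (6.94%, against 3.29% of all genes in either direction) and 0 fell by edgeR. An unadjusted p under 0.05 was found for 25 (34.7%, against 19.2% of all genes), and the median log2 fold change was -0.03. Of 7 other Dusp genes tested, 2 rose. Dusp14 went from 4.73 ± 0.555 to 20.5 ± 9.67 CPM (a log2 difference of 2.12 with SE 0.38; by edgeR, adjusted p 0.0226), and Dusp8, a phosphatase of stress-activated MAP kinases, from 32.9 ± 2.41 to 80.8 ± 16.8 CPM (a log2 difference of 1.29 with SE 0.23; by edgeR, adjusted p 0.0233). Dusp10, which acts on the same kinases, was at -1.02 and did not pass.

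The median log2 fold change over 17 genes of the cascade itself was -0.03, with 8 positive and 9 negative. Map2k1, which encodes MEK1, was at 0.95 and Braf at 0.93, and neither passed (edgeR adjusted p 0.125 and 0.129), while both passed with DESeq2 (adjusted p 0.0411 and 0.0371).

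Among 12 other inhibitors 0 passed by edgeR, with 3 at an unadjusted p under 0.05. Spred2, a relative of the Sprouty genes that binds neurofibromin, was at 0.96 (SE 0.33), Il17rd, an inhibitor of fibroblast growth factor signalling, at -0.96 (SE 0.31), and the receptor antagonist gene Lrig1 at -0.81 (SE 0.29). Among 11 tested ERK-responsive genes 0 passed by edgeR, with 3 at an unadjusted p under 0.05. Egr1, an immediate early factor, had 44.3, 16.1 and 13.3 CPM in controls and 223, 63.4 and 108 CPM in mutants (a log2 difference of 2.42 with SE 0.57; by edgeR, adjusted p 0.0582). Egr1 passed in edgeR with total-count scaling (adjusted p 0.0413), with no count filter (0.0173) and without mutant library 2 (0.00167), and also with DESeq2 (0.000207) and limma-voom (0.0434). The matrix gene Spp1 was at -1.32 and the cyclin gene Ccnd1 at -0.86, of which Spp1 passed with DESeq2 (adjusted p 0.0173). Without mutant library 2 both passed by edgeR, Spp1 at -1.83 (adjusted p 0.000828) and Ccnd1 at -1.31 (adjusted p 0.00108).

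Of 12 receptor genes 3 had positive and 9 negative fold changes, with a median of -0.40 on the log2 scale. Ntrk3 was at 0.75 and Pdgfrb, a pericyte gene, at -1.27, and neither passed. Of 13 tested ligand genes 1 rose, Fgf13, an intracellular member of its family that binds sodium channels, at 2.30 (SE 0.47; by edgeR, adjusted p 0.0377). Its relatives Fgf12 and Fgf14 were at 1.95 and 1.47 (edgeR adjusted p 0.0594 and 0.0618). With limma-voom Fgf13 did not pass (2.10, adjusted p 0.0629), whereas Fgf12 and Fgf14 passed with DESeq2 (adjusted p 0.000728 and 0.0032) and in edgeR with no count filter (0.0202 and 0.0276). The calls of Dusp8, Dusp14 and Fgf13 held by edgeR without mutant library 2. In that fit 39 of the 76 listed genes passed, 19 higher and 20 lower. Of all genes tested 27% did so, 13.2% higher and 13.8% lower. All 3 were lost without any 1 control or without mutant library 1, and without mutant library 3 Dusp8 and Dusp14 still passed. None of the 3 passed with the neuron markers as covariate, where Dusp8 was at 0.88, Dusp14 at 0.97 and Fgf13 at 0.08 on the log2 scale. With that covariate edgeR called 34 of all 16315 genes tested.

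**Figure D4:**
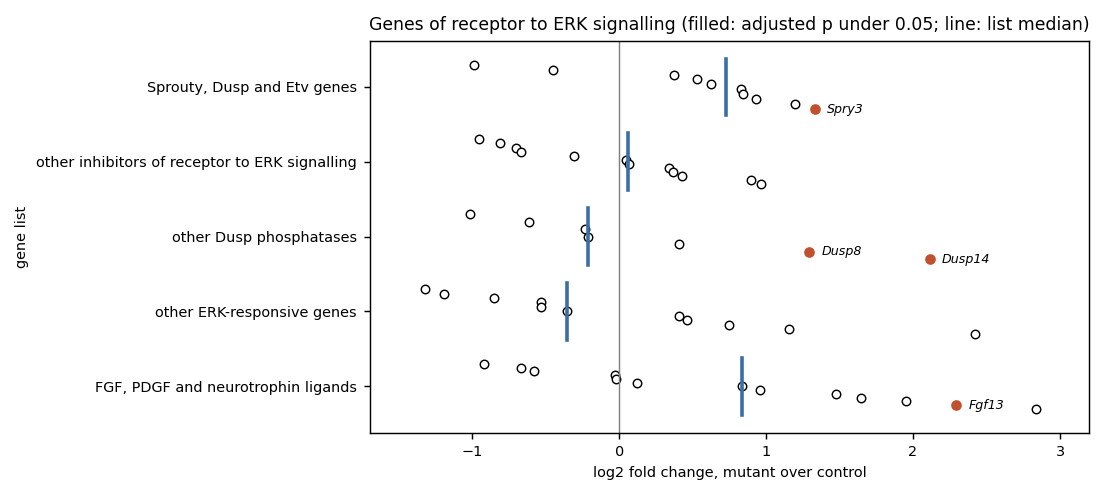
Log2 fold changes, mutant over control, of the 10 feedback genes (top row) and of the tested genes of 4 other lists (rows); filled points have an edgeR adjusted p under 0.05 and blue lines are list medians. The called genes shown are Spry3, Dusp8, Dusp14 and Fgf13, all higher in mutants, while the list medians lie from -0.36 to 0.83.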

How the data were processed

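The values analysed are raw fragment counts per gene, 1 deposited file per library, which the authors obtained by running featureCounts 1.4.6-p4 over UCSC mm10 exons, in paired mode and ignoring strand (per the file headers). The submitters' processing notes list TopHat as well as mm10. Total RNA was amplified with the Ovation RNA-Seq System v2 before library preparation, per the labels' protocols. Counts were tested with edgeR 4.0.16 (R 4.3.3), with TMM scaling, filterByExpr (minimum count 10), quasi-likelihood F tests and Benjamini-Hochberg adjustment over all 16315 genes tested, on 3 control and 3 mutant libraries with no covariate. SE was taken as the size of the log2 fold change over the root of F. CPM uses TMM-scaled library sizes, and log2 CPM adds 0.5. No library repeated another (chi-square per degree of freedom at least 48.2). Amplified reads are not independent molecules, so counting intervals cover counting error only. The script was tested on simulated counts. The members and gene lists were chosen with earlier results of these data known. The rule named all 10 members, up to 3 genes per list (called genes first, then by smallest p) and the 5 genes most like each called member; genes of marker lists are named beside results they touch. Some genes that the rule named are not reported here. Alternatives were other scalings, DESeq2 1.42.0 (named in the submitters' notes), limma-voom (limma 3.58.1), other count filters, covariates, the libraries with high Xist alone, and leaving out each library; the myelin covariate was added after seeing the data.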

Additional observations from a re-analysis of the deposited data

How the results depend on the processing

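Other scalings in edgeR, DESeq2, limma-voom and other count filters left 1 of the 10 genes called, Spry3, with log2 fold changes of 1.26 to 1.34. DESeq2 called 1657 genes and 12 of the pathway lists, and no count filter gave 870 and 8, in place of 537 and 5. With Xist (log2 CPM) as covariate, and with the libraries of high Xist alone, 0 of the 10 genes, 0 pathway genes and 0 genes in all passed by edgeR, with 1299 and 894 genes at an unadjusted p under 0.05 (the second fit has 1 control, assumed to vary like the mutants); Spry3 was at 1.25 and 1.22, and Dusp5 turned to -0.62 and -0.81. With the neuron marker mean as a covariate 0 of the 10, 0 pathway genes and 34 genes passed. The median of the 10 was then -0.11, and Spry4 (-0.81), Dusp4 (-0.54), Dusp5 (-4.17), Dusp6 (-0.45), Etv1 (0.23), Spred2 (-0.23), Ccnd1 (0.04), Spp1 (0.07), Pdgfrb (0.19) and Fgf12 (-0.31) turned in sign. With the myelin marker mean, 0 of the 10, 0 pathway genes and 228 genes passed, the median was 0.23, and Spry4 (-0.33) and Dusp5 (-2.31) turned. Leaving out 1 library gave 0 to 5 of the 10 called, 0 to 39 pathway genes, 51 to 4551 genes in all and medians of the 10 from 0.43 to 0.85; the upper ends of the counts are without mutant library 2, and Dusp5 ranged from -0.37 (without mutant library 1) to 1.17 (without mutant library 2). The cause of these shifts was not tested. Dusp5 was not tested with a minimum count of 30 or without control library 2. No paired analysis was possible because the labels give the libraries no shared replicate numbers.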
